A study of Homo sapiens with 20 samples.

Results

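Initiation complexes pulled down through eIF4G1 from HEK 293T cells were compared between cells given the compound i14G1-12 and cells given its solvent, DMSO. They make up 6 of the 20 libraries in the series, 3 per treatment, and were taken by the labelled target of the immunoprecipitation, with all genes kept. HEK 293T is a transformed human embryonic kidney line, labelled WT in every group, and it was treated for 1 h with DMSO or with i14G1-12 at 5 µM. Cells were fixed with formaldehyde, lysates were digested with RNase I, and complexes were fractionated by ultracentrifugation before the antibody to eIF4G1 was used. The method, selective translation complex profiling, reads the mRNA stretches protected by initiation complexes that hold a chosen factor. The other 14 libraries were made the same way through HA-tagged eIF1, HA-tagged eIF2a or eIF3, each with its own DMSO libraries.

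eIF4G1 is the scaffold of eIF4F, the complex that also holds the cap-binding protein eIF4E and the helicase eIF4A. By binding eIF3 it brings the small ribosomal subunit to an mRNA, and it contacts eIF1, the factor that guards start codon choice while the subunit scans. The series title describes the compound as acting on the eIF1-eIF4G1 pair. The question of the comparison is therefore which mRNAs gained or lost footprints in eIF4G1 complexes within 1 h of the compound. Each value here is a share of what 1 immunoprecipitate held. More eIF4G1 complexes on an mRNA and more of that mRNA in the cell cannot be told apart, since no RNA library of whole cells was analysed here.

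Each table lists 19029 Ensembl gene IDs without names, and 0 of them matched a symbol in the reference table used. Genes are therefore described as groups, with a few IDs given, and no function is attached to an ID. For the same reason the levels of EIF1 and EIF4G1 and the markers of the HEK 293T line were not checked, and the gene lists drawn up for this tissue and treatment were not used.

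Libraries were shallow, and 1 of them was unusual. Total counts were 321355, 401076 and 1085854 in i14G1-12 libraries 1, 2 and 3, and 1003544, 349557 and 243145 in DMSO libraries 1, 2 and 3. In i14G1-12 library 3, 12568 of the 12574 genes with a count above 0 had a count divisible by 3. No gene there had a count of 1 or 2, while 1251 genes had 3 and 680 had 6. Across the other 19 libraries, 12.0% to 35.6% of such genes had counts divisible by 3. Divided by 3, the total of this library is 361951, close to that of DMSO library 2 as counted, which was not divided.

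The other eIF4G1 libraries also had unevenly spaced low counts, with an excess at 3 in the i14G1-12 libraries and at 2 in the DMSO libraries. In i14G1-12 library 1, 1020 genes had a count of 1, 365 had 2 and 1160 had 3, and in library 2 the numbers were 744, 273 and 893. DMSO library 1 had 527, 694 and 336 genes at counts of 1, 2 and 3, library 2 had 659, 898 and 494, and library 3 had 791, 1162 and 745. All 6 eIF1 libraries likewise had more genes at 2 or 3 than at 1, and 1 of their DMSO libraries had 0, 692 and 697 genes at counts of 1, 2 and 3. In all 8 eIF2a and eIF3 libraries more genes had a count of 1 than of 2 or 3. The part of such spacing in the results was tested for i14G1-12 library 3 alone, by dividing its counts by 3. It was not tested for the others. That division leaves the shares within the library nearly unchanged and changes mainly its depth. As the excess lay at 3 with the compound and at 2 in DMSO, spacing and treatment cannot be told apart in the 6 eIF4G1 libraries.

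**Figure D1:**
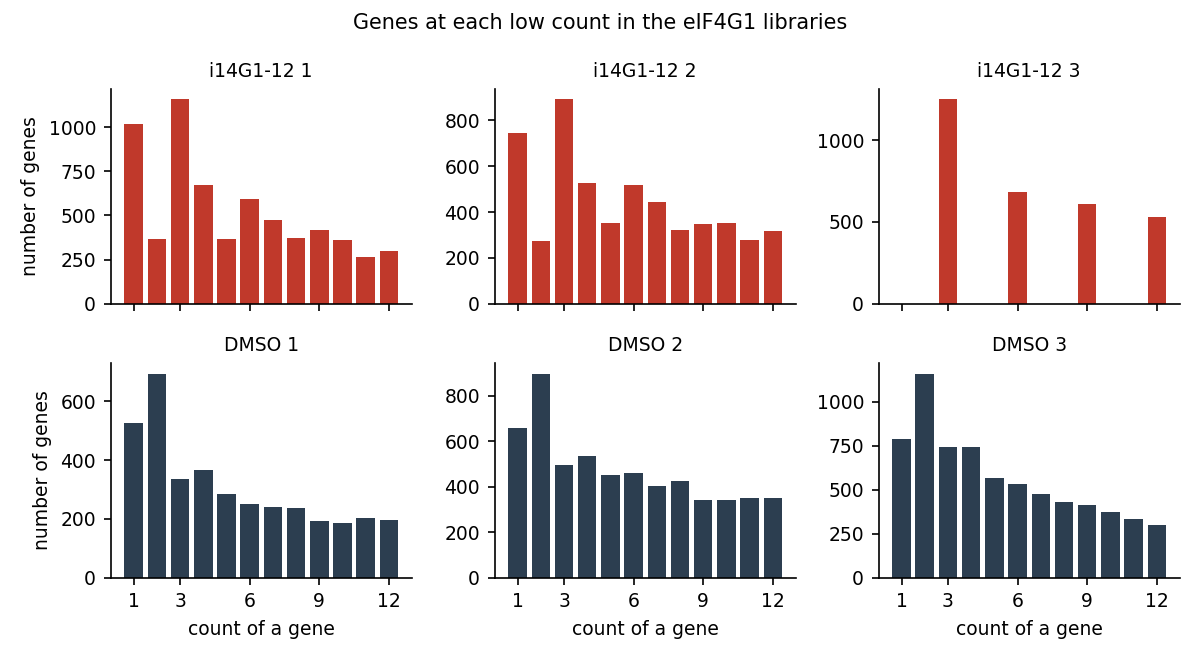
Number of genes (y axis) at each count from 1 to 12 (x axis) in the 6 eIF4G1 libraries, i14G1-12 in the upper row and DMSO in the lower. In i14G1-12 library 3 bars stand at multiples of 3 only, with 1251 genes at 3, whereas in DMSO library 1 the tallest bar is at 2, with 694 genes.

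Within a group, Spearman's rho between libraries was 0.697 to 0.833 across genes. Between the groups it was 0.632 to 0.841, so libraries did not sort by treatment on this measure. i14G1-12 library 3 had 0.841, 0.828 and 0.750 with DMSO libraries 1, 2 and 3. With i14G1-12 libraries 1 and 2 it had 0.717 and 0.793. i14G1-12 library 1 stood furthest from the rest. Its rho was 0.632 to 0.717 with the other 5 libraries, and pairs without it lay at 0.736 to 0.841. Whether the 3 libraries of a group are separate cultures is not in the labels, so p-values cover only the spread among these libraries, and that spread may be technical.

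In eIF4G1 complexes 25 of 7203 tested genes rose after i14G1-12, which is 0.347%, and 0 fell (edgeR's quasi-likelihood test, Benjamini-Hochberg adjusted p at or under 0.05). The rises were 2.20-fold to 26.0-fold, with a median of 3.29-fold. Over all tested genes the median log2 fold change was -0.01, and 49.6% of genes had a higher fitted level with the compound. At an unadjusted p under 0.05, 422 genes (5.86%) were higher and 201 (2.79%) lower, together 623 (8.65%) where 360 are expected with no change. The number called fell to 4 without DMSO library 3, 5 without DMSO library 1 and 12 (11 higher, 1 lower) without DMSO library 2. It was 41 (37 higher, 4 lower) without i14G1-12 library 1 and 46 (45 higher, 1 lower) without i14G1-12 library 3. With the counts of i14G1-12 library 3 divided by 3, 23 genes rose, all of them among the 25, and 0 fell.

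Together the 25 risers held 4.83%, 3.54% and 3.15% of all counts in i14G1-12 libraries 1, 2 and 3, and 1.59%, 1.38% and 1.23% in DMSO libraries 1, 2 and 3. For 24 of the 25, each i14G1-12 library lay above each DMSO library. Over all tested genes 7.4% had that pattern and 6.87% the opposite one. Because a difference in these same libraries chose the 25, the count describes them and does not test them. The riser whose groups overlapped had 504, 28.1 and 139 CPM (counts per 1000000 of the TMM-scaled library) with the compound and 18.4, 45.0 and 16.8 in DMSO (log2 fold change 3.05, SE 0.65, edgeR adjusted p = 0.0372).

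i14G1-12 library 1 gave the highest treated value for 22 of the 25 risers, where it was the highest for 36.9% of all tested genes. At the other end, DMSO library 3 gave the lowest control value for 17 of the 25, against 38.4% of all tested genes. Without i14G1-12 library 1, 21 of the 25 were still called, and all 25 were higher.

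**Figure D2:**
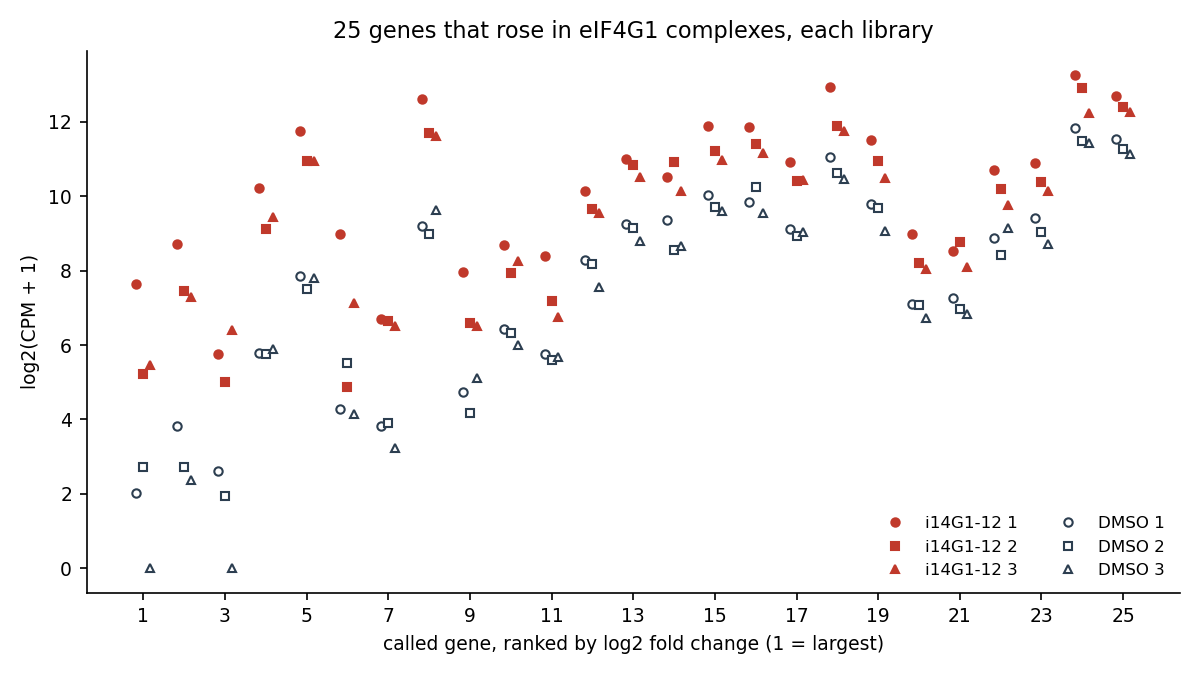
log2(CPM + 1) (y axis) of the 25 genes that rose, ranked by log2 fold change (x axis), with 1 point per library, filled for i14G1-12 and open for DMSO. The groups separate for 24 genes, and i14G1-12 library 1 is the highest for 22.

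The risers were of unlike abundance. Of the 25, 15 were in the most abundant 10% of tested genes, at a mean of 250.9 CPM or more over the 6 libraries. These 15 had 55.4 to 3078 CPM in DMSO and rose 2.20-fold to 14.6-fold, with a median of 3.01-fold. The other 10 had 2.64 to 130.4 CPM in DMSO and rose 2.71-fold to 26.0-fold, with a median of 6.63-fold. Their treated replicates scattered more, at a median coefficient of variation of 53.3% against 32.6% for the abundant ones.

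The largest rises were in genes close to the detection floor in DMSO. ENSG00000170345 had 197, 36.6 and 43.5 CPM in i14G1-12 libraries 1, 2 and 3 and 3.06, 5.63 and 0 CPM in DMSO libraries 1, 2 and 3. These rest on 52, 13 and 45 counts with the compound and 3, 2 and 0 in DMSO, where the 0 allows up to 12.3 CPM. Each treated library was above each DMSO library, and library 1 held most of the treated signal. The means were 92.4 ± 90.7 and 2.90 ± 2.82 CPM (SD, n = 3 each). The log2 fold change was 4.70 (SE 0.81, edgeR adjusted p = 0.00549). The call did not hold without i14G1-12 library 1 (edgeR adjusted p = 0.0742), DMSO library 1 (0.121) or DMSO library 3 (0.102).

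ENSG00000120738 rose as far and with less scatter. It had 421, 174 and 156 CPM with the compound and 13.3, 5.63 and 4.20 CPM in DMSO, from 111, 62 and 162 against 13, 2 and 1 counts. The lowest treated library was above the highest DMSO library by a wide margin. The means were 250 ± 148 and 7.69 ± 4.87 CPM (SD, n = 3 each), and the log2 fold change was 4.66 (SE 0.51, edgeR adjusted p = 8.37e-06). It passed in all 6 fits that left out 1 library, at log2 fold changes of 4.08 to 5.53.

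Few of the calls held through such fits. Of the 25 risers, 4 were called in all 6, among them ENSG00000120738 and the pair ENSG00000204388 and ENSG00000204389 described with eIF1, and these 4 had rises of 6.84-fold to 25.3-fold. Another 4 were called in 4 or 5 fits and 17 in 3 or fewer. At the threshold, the last 5 genes called had adjusted p-values of 0.0378 to 0.0496 and rises of 2.20-fold to 3.72-fold. The next 5 genes, all higher with no overlap between the groups, had adjusted p-values of 0.0573 to 0.0594 and values 2.29-fold to 2.51-fold higher.

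Genes that share sequence can share reads, and the rule for reads that fit several genes was not given in the sources used here. Among the 18 risers with at least 500 counts in all, 1 had a partner ID whose counts were within 15% in every eIF4G1 library. Sharing of reads at unequal counts was not looked for, so it is not known for ENSG00000204388 and ENSG00000204389 either. The riser of that pair rose 2.41-fold from 3078 CPM in DMSO (edgeR adjusted p = 0.0378). Its partner, at 3108 CPM in DMSO, was 2.29-fold higher and did not pass (edgeR adjusted p = 0.0594).

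The risers came mostly from short counted sequences. Their median length was 2013 nt, and the median of all tested genes was 3369 nt. By quartile of length over all tested genes, from short to long, 12, 11, 2 and 0 of the 25 risers were found, with 1973 nt as the upper bound of the shortest quartile and 5268 nt as the lower bound of the longest. Short sequences were not particular to the risers. The 10 lower genes with the smallest p and no overlap, described below, had a median length of 1450.5 nt. These are lengths of the whole sequence on which reads were counted, and no test was made of them.

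In the main fit no gene passed the test with a lower level. Of the other fits to all 6 libraries, some called lower genes, such as 5 with no filter on low counts, and others called 0. ENSG00000085231 had the smallest p among the lower genes. It had 41.7, 50.6 and 49.3 CPM with the compound and 111, 118 and 172 CPM in DMSO, so the groups were apart and the treated values close together. The means were 47.2 ± 4.82 and 134 ± 33.4 CPM (SD, n = 3 each). On the log2 scale the difference was -1.46 (SE 0.37, edgeR adjusted p = 0.105), and the adjusted p was 0.0866 to 0.665 in fits without 1 library.

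ENSG00000204435 had 53.1, 127 and 145 CPM with the compound and 229, 267 and 353 CPM in DMSO. i14G1-12 library 1 was the lowest here, and the groups were again apart. The means were 108 ± 48.6 and 283 ± 63.1 CPM (SD, n = 3 each), and the log2 difference was -1.32 (SE 0.35, edgeR adjusted p = 0.129). It passed with no filter on low counts (edgeR adjusted p = 0.0218) and in DESeq2, with no filter (adjusted p = 0.00692) or with the same filter (adjusted p = 0.0113). Its adjusted p was 0.0871 to 0.706 in fits without 1 library. The 10 lower genes with the smallest p and no overlap, these included, were 1.95-fold to 3.72-fold lower, with edgeR adjusted p-values of 0.105 to 0.262.

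The largest fall in fitted level came from a single library. One gene with 3834 CPM in DMSO library 3 had 32.6 and 2.81 CPM in the other DMSO libraries and 174, 19.7 and 26.1 CPM with the compound. Its log2 fold change of -4.28 did not pass (edgeR adjusted p = 0.194).

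**Figure D3:**
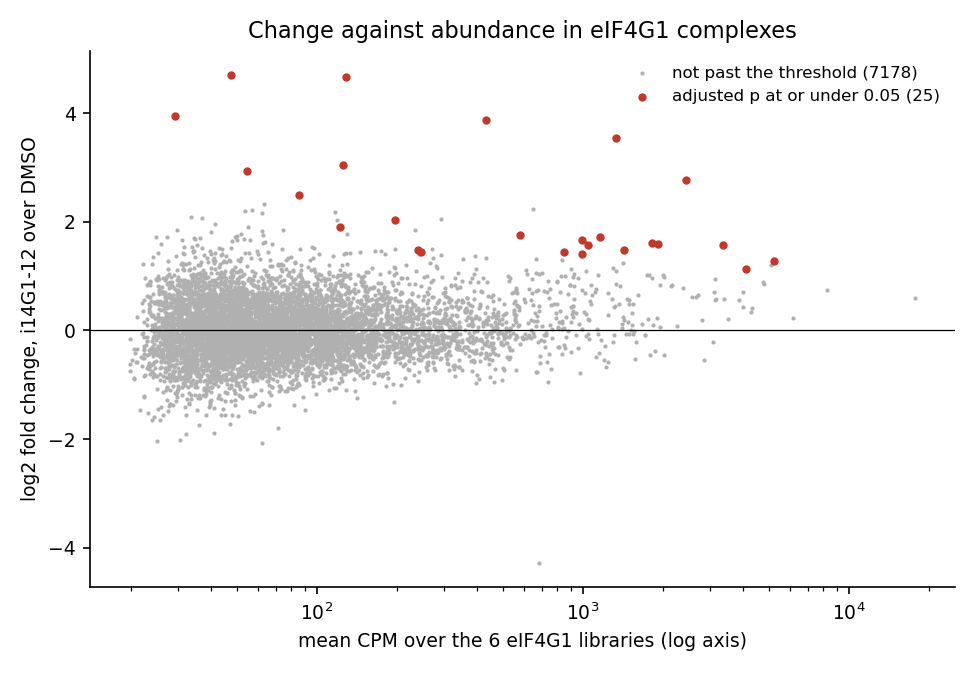
log2 fold change of i14G1-12 over DMSO (y axis) against mean CPM over the 6 eIF4G1 libraries on a log axis (x axis), with 1 point per tested gene and the 25 called genes in colour. All called genes lie above 0, and 15 of them are at 250.9 CPM or more.

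Among abundant mRNAs, genes with all treated libraries higher outnumbered those with all lower. In the most abundant 10% of tested genes, 15.8% of genes had all i14G1-12 libraries above all DMSO libraries and 7.35% had the reverse, where all tested genes gave 7.4% and 6.87%. The median log2 fold change in that class was 0.09. In the least abundant 10% the shares were 5.13% and 4.99%. The sign of the median depended on which libraries set the classes. With the 10% most abundant in the 7 DMSO libraries of the other immunoprecipitations, the shares were 15.5% and 6.93% and the median 0.07. With the 10% most abundant in the eIF4G1 DMSO libraries, the shares were 13.5% and 9.57% and the median was -0.02.

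**Figure D4:**
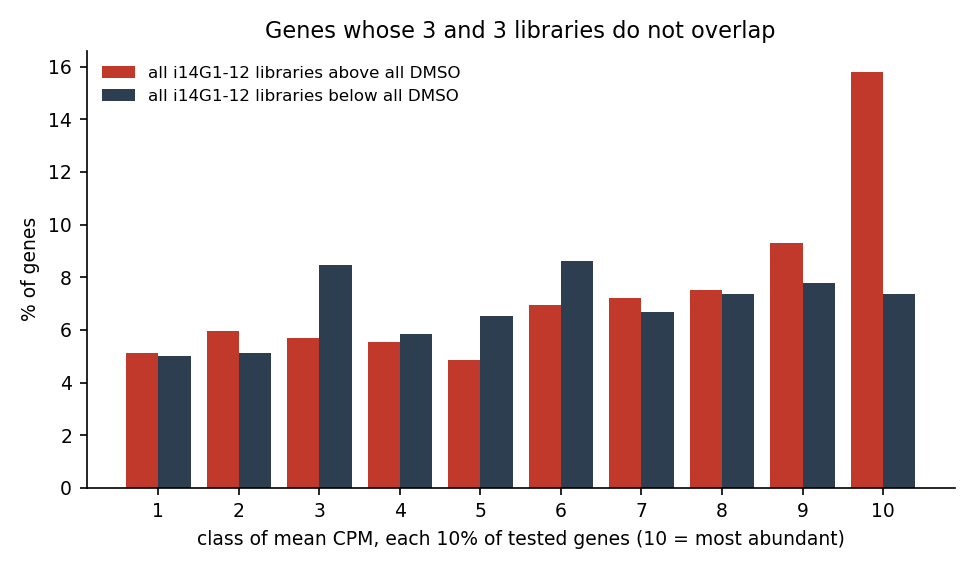
Percentage of genes (y axis) whose i14G1-12 libraries all lay above, or all below, the DMSO libraries, in 10 equal classes of mean CPM (x axis, 10 the most abundant). The bars for the upper pattern reach 15.8% in class 10, and those for the lower pattern are at 7.35% there.

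The shift was larger among the 100 most abundant genes, at means of 1068 to 17826 CPM, a number chosen after the data were seen. Of these, 77 had a higher fitted level with the compound, and the median log2 fold change was 0.49 (quartiles 0.04 and 0.84). The groups did not overlap for 45 that were higher (7.4% of all tested genes) and 4 that were lower (6.87%), and 9 passed the test (0.347%). In the most abundant 10% of tested genes these shares were 15.8%, 7.35% and 2.08%. Leaving out those 9, 68 of 91 were higher, with a median of 0.43. The 100 held 25.7%, 24.3% and 21.4% of counts in i14G1-12 libraries 1, 2 and 3 and 19.2%, 17.7% and 18.7% in the DMSO libraries, or 23.8% ± 2.23 against 18.5% ± 0.80 (SD, n = 3 each). The treated libraries helped to choose these genes, and only 4 risers were among the 100 most abundant of the DMSO libraries, while 13 were among those of the i14G1-12 libraries. Their median sequence length was 1070 nt, shorter than that of the risers.

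Lists drawn from DMSO libraries alone gave the same direction, with a smaller shift in 1 of them. Of the 100 most abundant genes in the eIF4G1 DMSO libraries, 65 were higher with the compound, with a median log2 fold change of 0.21. They held 23.7%, 23.1% and 20.3% of counts in the i14G1-12 libraries and 19.5%, 17.8% and 19.6% in the DMSO libraries. Choosing genes for a high level in these DMSO libraries favours lower treated values, while the mean over all 6 libraries weighs both groups equally. Of the 100 most abundant genes in the 7 DMSO libraries of the other immunoprecipitations, 76 were higher, with a median of 0.49, and 90 were shared with the first list. These held 25.3%, 23.9% and 21.2% of counts in the i14G1-12 libraries and 18.9%, 17.4% and 18.4% in the DMSO libraries, so the groups did not overlap.

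Scaling by total counts alone moved the median of all tested genes to -0.16. On that scale 66 of the 100 from the other DMSO libraries were higher (median 0.33), and 54 of the 100 from the eIF4G1 DMSO libraries (median 0.03). Without i14G1-12 library 1 the medians were 0.36 and 0.14. The first list was mostly higher in the other immunoprecipitations as well. Of its 100 genes, 69 were higher in eIF1 complexes (median 0.25), 66 in eIF3 complexes (median 0.22) and 87 in eIF2a complexes (median 0.20). Over all genes tested there, 50.6%, 51.5% and 56.6% were higher, with medians of 0.005, 0.02 and 0.06. Whether the shift differed between immunoprecipitations was not tested.

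The same risers were then followed in the other immunoprecipitations, each with its own DMSO libraries. In eIF1 complexes all 25 had a higher fitted level with the compound (50.6% of all genes). Of these, 7 passed the test there, against 0.324% of all genes tested in that direction, and 18 had an unadjusted p under 0.05, against 6.52%. The groups did not overlap for 17 of 25 (8.73% of all genes). In eIF3 complexes, with 2 libraries per group, all 25 were again higher (51.5% of all genes). There 1 passed (0.0159%), 13 had an unadjusted p under 0.05 (1.24%) and 20 showed no overlap (12.5%). In eIF2a complexes 17 of the 21 that could be tested were higher (56.6% of all genes). Of the 21, 0 passed by edgeR, 2 had an unadjusted p under 0.05 (1.25%) and 4 showed no overlap (20.4%). One eIF2a DMSO library held only 10033 counts.

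Both genes with the largest rises in eIF4G1 complexes also rose in eIF1 complexes. ENSG00000120738 had 3.32 in eIF1 (edgeR adjusted p = 0.000328). In eIF3 it rose from 2 and 1 counts in DMSO to 139 and 59 counts (edgeR adjusted p = 0.0397), and since 1 of those DMSO libraries held 59179 counts in all, no fold is given. ENSG00000170345 had 3.31 in eIF1 (edgeR adjusted p = 0.0135). In eIF3 it had 3 and 1 counts in DMSO and 56 and 24 with the compound and did not pass (edgeR adjusted p = 0.354). The lower genes did not share 1 pattern. ENSG00000085231 was near its DMSO level in eIF1, at -0.10 on the log2 scale, while ENSG00000204435 was at -0.92 (edgeR adjusted p = 0.0869).

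**Figure D5:**
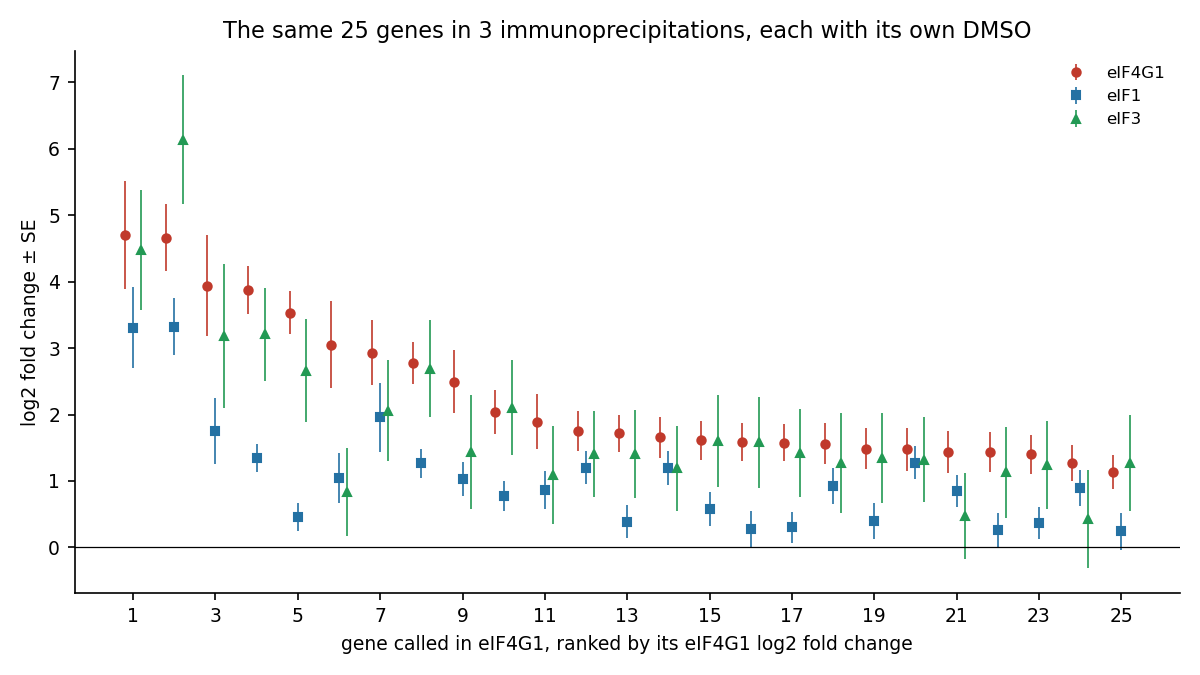
log2 fold change with its SE (y axis) of the 25 eIF4G1 risers in eIF4G1, eIF1 and eIF3 complexes, each against its own DMSO libraries, ranked by the eIF4G1 value (x axis). All 25 points lie above 0 in each of the 3 immunoprecipitations, and those of eIF1 reach at most 3.32.

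Whether the compound acted differently on eIF4G1 and eIF1 complexes was tested directly, as a difference of effects in 1 fit to all 20 libraries. Of 9426 genes, 3 had a larger effect in eIF4G1 (0.0318%) and 0 a smaller one, and 295 (3.13%) had an unadjusted p under 0.05. For all 25 risers the effect was larger in eIF4G1, by a median of 1.14 on the log2 scale. Of them 12 had an unadjusted p under 0.05 in that direction, against 1.77% of all genes, and 2 passed. The eIF4G1 values that chose the 25 enter this difference, so these counts are not independent of the choice.

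ENSG00000204388 had the clearest difference. In eIF4G1 complexes it had 3441, 1974 and 1959 CPM with the compound and 230.4, 180.1 and 223 CPM in DMSO, the groups lying far apart (log2 fold change 3.54, SE 0.32, edgeR adjusted p = 5.69e-07). CPM of the other immunoprecipitations are on the scale of the fit to all 20 libraries. On that scale the eIF4G1 means of this gene were 2299 CPM with the compound and 198 CPM in DMSO. In eIF1 complexes it was already abundant in DMSO, at 1374 ± 130 CPM, and stood at 1920 ± 103 CPM with the compound (SD, n = 3 each). It was also high in DMSO in eIF2a complexes, at 1190 ± 113 CPM, and low in eIF3 complexes, at 276 ± 234 CPM (SD, n = 2 each). eIF1 and eIF2a were pulled down through an HA tag and eIF4G1 and eIF3 were not, so the tag and the factor cannot be told apart. The effect was larger in eIF4G1 than in eIF1 by 3.05 on the log2 scale (SE 0.52, edgeR adjusted p = 0.00220), and by 2.73 to 3.20 without any 1 library of the 12 (edgeR adjusted p up to 0.0310).

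ENSG00000204389 also rose in eIF1 complexes. It had 1186, 557 and 695 CPM with the compound and 54.0, 53.5 and 58.8 CPM in DMSO in eIF4G1 complexes, where the DMSO values were close together (log2 fold change 3.87, SE 0.36, edgeR adjusted p = 5.99e-07). In eIF1 complexes its levels were 241 ± 33.4 CPM in DMSO and 624 ± 84.6 CPM with the compound (SD, n = 3 each), scaled as in the fit to all 20 libraries. In the fit to the eIF1 libraries alone this was a 2.54-fold rise (edgeR adjusted p = 0.00448). For ENSG00000204388 the eIF1 value was 1.37-fold higher and did not pass (edgeR adjusted p = 0.367). The effects on ENSG00000204389 differed by 2.49 (SE 0.52, edgeR adjusted p = 0.0340), and by 2.13 to 2.69 without any 1 library, but the call was lost in 9 of those 12 fits (edgeR adjusted p up to 0.259). The third gene called, with a difference of 5.57 (edgeR adjusted p = 0.0340), had 799 counts in i14G1-12 library 1 and at most 33 in any other library. Without that library its difference was 0.17. Its call was lost in 9 of the 12 fits without 1 library and under 4 of 5 other alternatives. It did not pass the filter of the eIF4G1 comparison, so it was not among the 7203 genes tested there.

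No difference was called between the eIF4G1 and eIF3 effects by edgeR, and 295 of 9426 genes (3.13%) had an unadjusted p under 0.05. For 21 of the 25 risers the effect was larger in eIF4G1, and the median difference over all 25 was 0.31 on the log2 scale. Of the 25, 1 had an unadjusted p under 0.05 in that direction (1.41% of all genes). Here too the eIF4G1 values that chose the 25 enter the difference. ENSG00000204388 differed by 0.92 (SE 0.59, edgeR adjusted p = 0.999) and ENSG00000204389 by 0.67 (SE 0.62, edgeR adjusted p = 0.999).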

How the data were processed

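Footprints were counted per gene by the authors, who deposited raw counts in 4 tables, 1 per immunoprecipitation. The submitters' processing notes name featureCounts, HISAT2, Bowtie, Trimmomatic and cutadapt and build hg38, and settings are not given in the sources used here. Columns were assigned to samples by name. The eIF4G1 comparison was fitted on its 6 libraries with edgeR 4.0.16 in R 4.3.3 (glmQLFit, glmQLFTest) after filterByExpr with a minimum count of 10 and TMM scaling, and adjusted by Benjamini-Hochberg at 0.05 over 7203 genes. Differences between effects were contrasts of 1 fit to all 20 libraries. SEs were taken as log2 fold change (absolute) divided by √F. The code was tested on simulated data. Called genes were to be named by size of change without overlap at 10 CPM or more; as IDs had no names, 2 per direction and comparison are printed. Alternatives were other scalings, filters, DESeq2 1.42.0, a replicate block and leaving out each library. Members and lists were chosen with earlier results of these data known. A count of 0 allows 3 counts, 2.99 to 12.3 CPM (8.29 in i14G1-12 library 3, after division by 3), for counting error only.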

Additional observations from a re-analysis of the deposited data

Results flagged for a closer look

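The effects of 3 genes differed between eIF4G1 and eIF1 complexes by a test of the difference itself. The i14G1-12 effect was larger in eIF4G1 by 3.05 on the log2 scale for ENSG00000204388, which kept its call in all 12 fits without 1 library. It was larger by 2.49 for ENSG00000204389, which lost its call in 9 of these 12. For the other gene it was larger by 5.57, with 799 counts in 1 treated library, and it was 0.17 without that library. The call of this gene was lost in 9 of the 12 fits and under 4 of 5 other alternatives.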

How the results depend on the processing

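The 25 calls in eIF4G1 complexes became 68 (63 higher, 5 lower) with no filter on low counts, 40 at a minimum count of 30 and 97 (86 higher, 11 lower) by DESeq2 with no filter, which gave an adjusted p for 1005 genes and none for 7 of the 25. By DESeq2 on the 7203 genes of the same filter they were 75 (72 higher, 3 lower). That run gave an adjusted p for 1195 genes and again none for 7 of the 25. No DESeq2 adjusted p is given here for ENSG00000170345, ENSG00000120738 or ENSG00000085231. The calls numbered 4 to 46 in fits without 1 library. DESeq2 size factors gave 24, total counts 20, 1 fit to all 20 libraries 30, and the replicate block 31 (30 higher, 1 lower), with all 25 kept. Libraries of the same number did not deviate together (r -0.15 to 0.0066), so they were not treated as paired. Genes that differed between the eIF4G1 and eIF1 effects numbered 1 to 3 without 1 library, and between eIF4G1 and eIF3 0 to 2. Dividing i14G1-12 library 3 by 3, DESeq2 with the same filter and the lists from DMSO libraries were added after the data were seen. Values of single genes under the alternatives were counted, together with 1 count of the risers that meet the naming rule. Alternatives that gave a gene no adjusted p were left out. Of all these, 77 kept their side of the threshold or their number, 25 no longer passed, 3 newly passed and 0 reversed. The cause was not tested, except that fewer genes or libraries are the alternative itself. Lists of named pathways were not run, because IDs were not matched to names. The shallow libraries limit which small changes in rare mRNAs were detectable.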
